A study of Homo sapiens with 66 samples.

Results

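The comparison described here is AMO1 myeloma cells treated with NCP26 for 24 h against AMO1 cells given DMSO for the same time, in 3 libraries each, chosen by the cell line, compound and time in the sample titles. These are 6 of the 66 libraries of the series. All genes of the count table were taken, and 10787 of 20167 passed a filter on low counts. AMO1 is an established human plasma cell line from multiple myeloma, with no engineered genotype. NCP26 is a pyrazinamide-type inhibitor that binds the ATP site of prolyl-tRNA synthetase (ProRS), the proline-charging part of GluProRS, the product of EPRS1. It was given at 1 µM, and the control groups received 0.1% DMSO. Polyadenylated RNA was sequenced. The question posed by the comparison is how the transcriptome of myeloma cells responds when charging of tRNA with proline is blocked. Other libraries were used for context only: AMO1 cells with NCP22, halofuginol or halofuginone (HFG) at 1 µM for 24 h, AMO1 cells with NCP26 or DMSO for 6 h, AMO1 cells with the proteasome inhibitor carfilzomib (only in alternative fits), and L363-CFZr cells, a carfilzomib-resistant (CFZ-resistant) subline of the myeloma line L363, with NCP26 or DMSO for 24 h.

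Aminoacyl-tRNA synthetases attach each amino acid to its tRNA. When an amino acid or its synthetase falls short, uncharged tRNA activates the kinase GCN2, which phosphorylates the initiation factor eIF2. General translation initiation then slows, while a few mRNAs, among them that of the transcription factor ATF4, are translated better. ATF4 with its partners switches on genes for amino acid uptake and synthesis, tRNA charging, redox balance and, under lasting stress, cell death. This programme is the integrated stress response (ISR). Plasma cells make immunoglobulin in bulk and are known to lean on protein quality control, on factors such as IRF4 and on the survival protein MCL1. An mRNA level says nothing directly about the protein or about phosphorylation of eIF2.

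The 3 DMSO libraries held between 2712083 and 5005629 counts and the 3 NCP26 libraries between 2763055 and 2974887. Within each group, log-scaled CPM (counts scaled to the size of the library) of replicate pairs correlated with r between 0.982 and 0.987. Plasma cell character was checked on 10 markers, which do not tell AMO1 from other plasma cell lines. All 10 were detected, with summed levels of 8601 to 9074 CPM with DMSO and 5074 to 5123 CPM with NCP26. Summed markers of T cells stood at 2.19 to 3.98 and 0.599 to 1.24 CPM, of myeloid cells at 0 to 0.597 and 1.20 to 3.23 CPM, of stromal cells at 1.17 to 4.76 and 2.91 to 4.19 CPM, of epithelial cells at 5.97 to 8.90 and 9.38 to 13.3 CPM, and of erythroid cells at 0 to 0.398 and 0 to 0.310 CPM, in DMSO and NCP26 libraries respectively. Their part in the results was not tested. The sample numbers in the column headings fall into separate sets, and what a set stands for is not stated. The NCP26, NCP22, halofuginol and HFG libraries of 24 h carry numbers of the same set, and the DMSO libraries of 24 h those of another, so that treatment and set cannot be told apart against DMSO but can against the other compounds. The study's methods speak of biological triplicates for experiments in general and of triplicate conditions for RNA sequencing. They do not say that the 3 libraries of a group came from separate cultures, so the p-values measure the spread between these libraries.

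By the main test, most of the tested genes differed between the NCP26 and DMSO libraries, and mostly by modest amounts. At an adjusted p under 0.05, 3214 genes (29.8% of those tested) were higher and 3333 (30.9%) lower, and 83.0% of these calls were below 2-fold. The median size of a called change was 0.57 on the log2 scale, and the median of all tested genes was 0.01. Changes of at least 2-fold were called for 439 genes upwards (4.07%) and 672 downwards (6.23%). All adjusted p-values come from the quasi-likelihood test of edgeR, adjusted by the method of Benjamini and Hochberg over all genes tested, each log2 fold change carries its standard error, levels are in CPM, and a call means an adjusted p under 0.05. DESeq2 called 5305 of the 10787 genes, and an edgeR fit with a term for the set called 2324 of 11236. With 60.7% of all tested genes called by the main test, the counts below are to be read against its shares, given above. Cells of a type and RNA per cell cannot be separated in such bulk libraries, and neither can a general fall of mRNA per cell, since CPM are relative to the library.

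**Figure D1:**
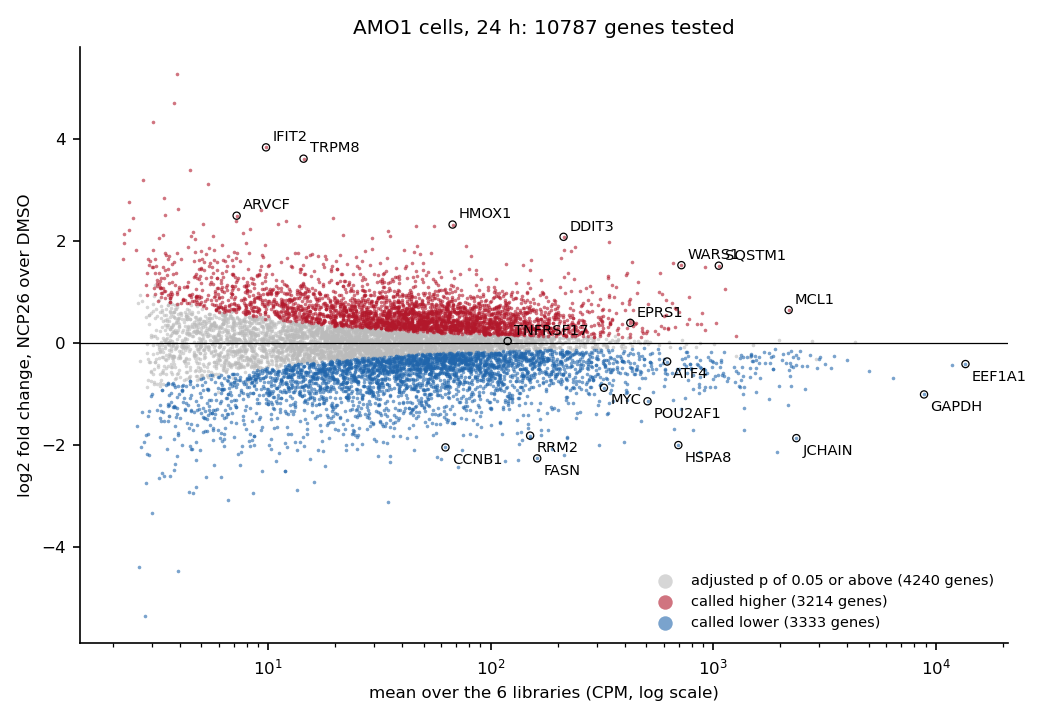
Log2 fold change of NCP26 over DMSO against the mean level over the 6 libraries (CPM, log scale) for the 10787 genes tested in AMO1 cells at 24 h. The 3214 genes called higher (red) and 3333 called lower (blue) spread around a median of 0.01, with HSPA8, FASN and JCHAIN among the labelled genes far below 0 and IFIT2, TRPM8, HMOX1 and DDIT3 far above it.

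The target itself was expressed. EPRS1 (chr1:219968600-220046530, GRCh38) stood at 378, 356 and 368 CPM in the DMSO libraries and at 475, 481 and 486 CPM in the NCP26 libraries. The groups did not overlap, and the level rose 1.31-fold (log2 0.39 ± 0.04, adjusted p = 4.7e-09). PARS2, the mitochondrial ProRS, was low and less certain (4.39, 6.33 and 5.97 CPM against 7.44, 12.6 and 7.78 CPM, log2 0.69 ± 0.26, adjusted p = 0.022). EIF2AK4, which encodes GCN2, rose from 46.1, 39.4 and 45.2 CPM to 54.9, 59.8 and 57.2 CPM (log2 0.40 ± 0.09, adjusted p = 0.00048). Of 14 tested genes for the eIF2 kinases, eIF2 and its exchange factor eIF2B, 7 rose and 5 fell. The largest rise was that of IMPACT, an inhibitor of GCN2 activation, from 9.14, 10.3 and 10.6 CPM to 25.1, 22 and 17.1 CPM (2.11-fold, adjusted p = 4.7e-06). The subunits of eIF2 moved apart, with log2 0.90 ± 0.05 for EIF2S2 (beta) and -0.50 ± 0.05 for EIF2S3 (gamma).

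Transcription factors and feedback genes of the ISR were the list with the highest median among lists with at least 5 tested members, 1.42 on the log2 scale against 0.01 over all genes, with 8 higher and 1 lower of 9. ATF3 (chr1:212565334-212620777), a stress-induced factor of the ATF/CREB family, was measured at 18.7, 20.4 and 17.5 CPM with DMSO and at 93.6, 92.8 and 90.7 CPM with NCP26. Every NCP26 library lay far above every DMSO library, a 4.91-fold rise (log2 2.30 ± 0.10, adjusted p = 9.0e-19). DDIT3 (chr12:57516588-57521737), encoding the pro-apoptotic factor CHOP, went from 87.1, 81.1 and 78.1 CPM to 331, 341 and 357 CPM. This was a 4.22-fold rise without overlap (log2 2.08 ± 0.06, adjusted p = 3.7e-23). TRIB3 (chr20:362835-397559), a pseudokinase that restrains ATF4, rose 3.69-fold from 95.1, 103 and 108 CPM to 364, 381 and 391 CPM (adjusted p = 1.4e-22). CEBPB, a dimerisation partner of ATF4 and CHOP, rose 3.4-fold (log2 1.76 ± 0.10). The exception was ATF4 mRNA itself (chr22:39519695-39522683), which stood at 669, 727 and 701 CPM in the DMSO libraries and 550.5, 526 and 552 CPM in the NCP26 libraries. It was lower in every NCP26 library than in any DMSO library (log2 -0.36 ± 0.04, adjusted p = 1.3e-08).

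ATF4 dimers bind the C/EBP-ATF response element (CARE). Promoter windows of 300 bases, 250 before to 50 after the annotated RefSeq start (GRCh38.p14), were searched on both strands for TGATGNAA, and the windows of 3 induced genes that hold a match are shown because those genes recur below. Capitals mark the match, which lay -191 bases from the start in ATF3, -209 in CHAC1 (there on the opposite strand) and -68 in ASNS, counted from the start to the first base of the match.
ATF3 promoter, chr1:212565157-212565456, plus strand: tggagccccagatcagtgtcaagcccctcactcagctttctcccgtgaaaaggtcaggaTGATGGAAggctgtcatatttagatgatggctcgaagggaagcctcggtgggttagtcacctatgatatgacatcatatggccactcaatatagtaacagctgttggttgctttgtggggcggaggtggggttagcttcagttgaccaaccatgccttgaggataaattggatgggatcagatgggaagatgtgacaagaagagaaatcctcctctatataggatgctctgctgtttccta
CHAC1 promoter, chr15:40953221-40953520, plus strand: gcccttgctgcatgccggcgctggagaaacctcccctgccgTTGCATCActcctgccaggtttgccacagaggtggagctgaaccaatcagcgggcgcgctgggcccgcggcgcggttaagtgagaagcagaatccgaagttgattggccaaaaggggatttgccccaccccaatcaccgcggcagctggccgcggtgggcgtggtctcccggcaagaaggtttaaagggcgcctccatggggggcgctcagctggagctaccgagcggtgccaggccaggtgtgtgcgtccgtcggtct
ASNS promoter, chr7:97872359-97872658, minus strand: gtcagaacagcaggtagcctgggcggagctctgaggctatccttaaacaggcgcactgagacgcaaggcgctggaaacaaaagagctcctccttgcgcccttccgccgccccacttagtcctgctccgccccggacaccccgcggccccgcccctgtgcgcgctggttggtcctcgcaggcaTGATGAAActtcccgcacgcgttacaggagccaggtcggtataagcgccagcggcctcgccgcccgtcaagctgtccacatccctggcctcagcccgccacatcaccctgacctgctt
The letters occurred in 3.67% of all 27305 windows and in 1.6% of those of the 8755 tested genes with a window. They occurred in 16 of 67 windows (23.9%) of the ISR, amino acid and synthetase lists. Among members of these lists at least 2-fold higher with NCP26 the share was 4 of 19 (21.1%). Among all 347 windows of genes at least 2-fold higher it was 3.75%. The windows of DDIT3, TRIB3, SESN2 and CEBPB, which rose, held no match. Those of GOT1 and MTHFD1L, which were not called, held 1 each. A match is a description of the sequence and not evidence of binding.

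ISR effector genes rose as a list, with 12 higher and 3 lower of 16 and a median of 1.04. CHAC1 (chr15:40952962-40956512), which degrades glutathione, was at 5.49, 5.39 and 6.37 CPM with DMSO and 14.3, 17.1 and 23.9 CPM with NCP26. The groups were apart but the 3 NCP26 values differed among themselves, and the rise of 3.18-fold carries a wide error (log2 1.67 ± 0.22, adjusted p = 9.5e-08). SESN2 (chr1:28259518-28282491), a leucine sensor that inhibits mTORC1, rose 3.1-fold from 76.1, 77.1 and 69.7 CPM to 213, 229 and 244 CPM (adjusted p = 5.4e-19). INHBE, an activin subunit gene, rose 3.75-fold and GDF15, a stress-induced cytokine, 2.96-fold. DDIT4 and NDRG1, which also answer to hypoxia, went the other way (log2 -0.45 ± 0.04 and -1.18 ± 0.07), and KLHL24 was slightly lower with overlapping groups (log2 -0.18 ± 0.08, adjusted p = 0.043).

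Amino acid transporters were mostly higher, with 10 higher and 1 lower of 16 (median 0.50). SLC7A11, the cystine-glutamate exchanger, was at 13.5, 19 and 14.1 CPM with DMSO and 73.2, 82.8 and 75.4 CPM with NCP26. It rose 4.9-fold (log2 2.29 ± 0.12, adjusted p = 5.4e-17) and was the transporter that rose most. The glycine transporter gene SLC6A9 rose 3.15-fold and SLC3A2, the heavy chain shared by several amino acid exchangers, 2.29-fold, from 277, 285 and 278 CPM to 644, 624 and 648 CPM. SLC7A6 was the member that fell (log2 -0.65 ± 0.10), although 53.6% of its 31-base words occur in other genes and its assignment is less certain.

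Enzymes of amino acid synthesis did not move together in AMO1. Of 20 tested, 7 rose and 8 fell, with a median of 0.01, equal to that of all genes. ASNS, asparagine synthetase (chr7:97851677-97872542), rose from 116, 121 and 114 CPM to 236, 229 and 220.3 CPM without overlap (1.95-fold, log2 0.97 ± 0.06, adjusted p = 5.9e-15), though 48.6% of its 31-base words are shared. The transsulphuration enzymes CTH and CBS rose 2.67-fold and 2.52-fold, the mitochondrial folate enzyme ALDH1L2 2.11-fold and the serine pathway enzyme PSPH 2.01-fold. Downwards went glutamine synthetase GLUL (60.0, 70.1 and 64.9 CPM to 19.2, 18.1 and 24.2 CPM, log2 -1.66 ± 0.11) and the folate enzyme MTHFD1 (log2 -1.40 ± 0.09). OAT, which links ornithine to the proline precursor, and PYCR3, which makes proline, fell too (log2 -0.83 ± 0.07 and -1.12 ± 0.30).

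Genes of the cytosolic aminoacyl-tRNA synthetase list rose in 14 and fell in 5 of 23 cases (median 0.35). The list includes AIMP1, AIMP2 and EEF1E1, which encode partner proteins and not synthetases. Of these only EEF1E1 was called (higher). WARS1, for tryptophan, was at 366, 359 and 390.3 CPM with DMSO and 1089, 1048 and 1065 CPM with NCP26. It rose 2.87-fold (adjusted p = 2.3e-23), followed by AARS1 for alanine (2.57-fold, 323, 326 and 320.0 CPM to 834, 828 and 822 CPM), GARS1 for glycine (1.99-fold) and SARS1 for serine (1.98-fold). QARS1, for glutamine, fell from 350.4, 374 and 369.8 CPM to 174, 194 and 189 CPM (log2 -0.98 ± 0.05, adjusted p = 2.5e-16), as did KARS1, FARSA and FARSB by smaller amounts (log2 -0.49 ± 0.06, -0.61 ± 0.08 and -0.36 ± 0.08). The mitochondrial synthetases leaned down, 2 higher and 10 lower of 17 (median -0.32), with SARS2 at log2 -1.27 ± 0.23. EPRS1, the target, lay with its log2 change of 0.39 next to the median of 0.35 of the cytosolic list.

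**Figure D2:**
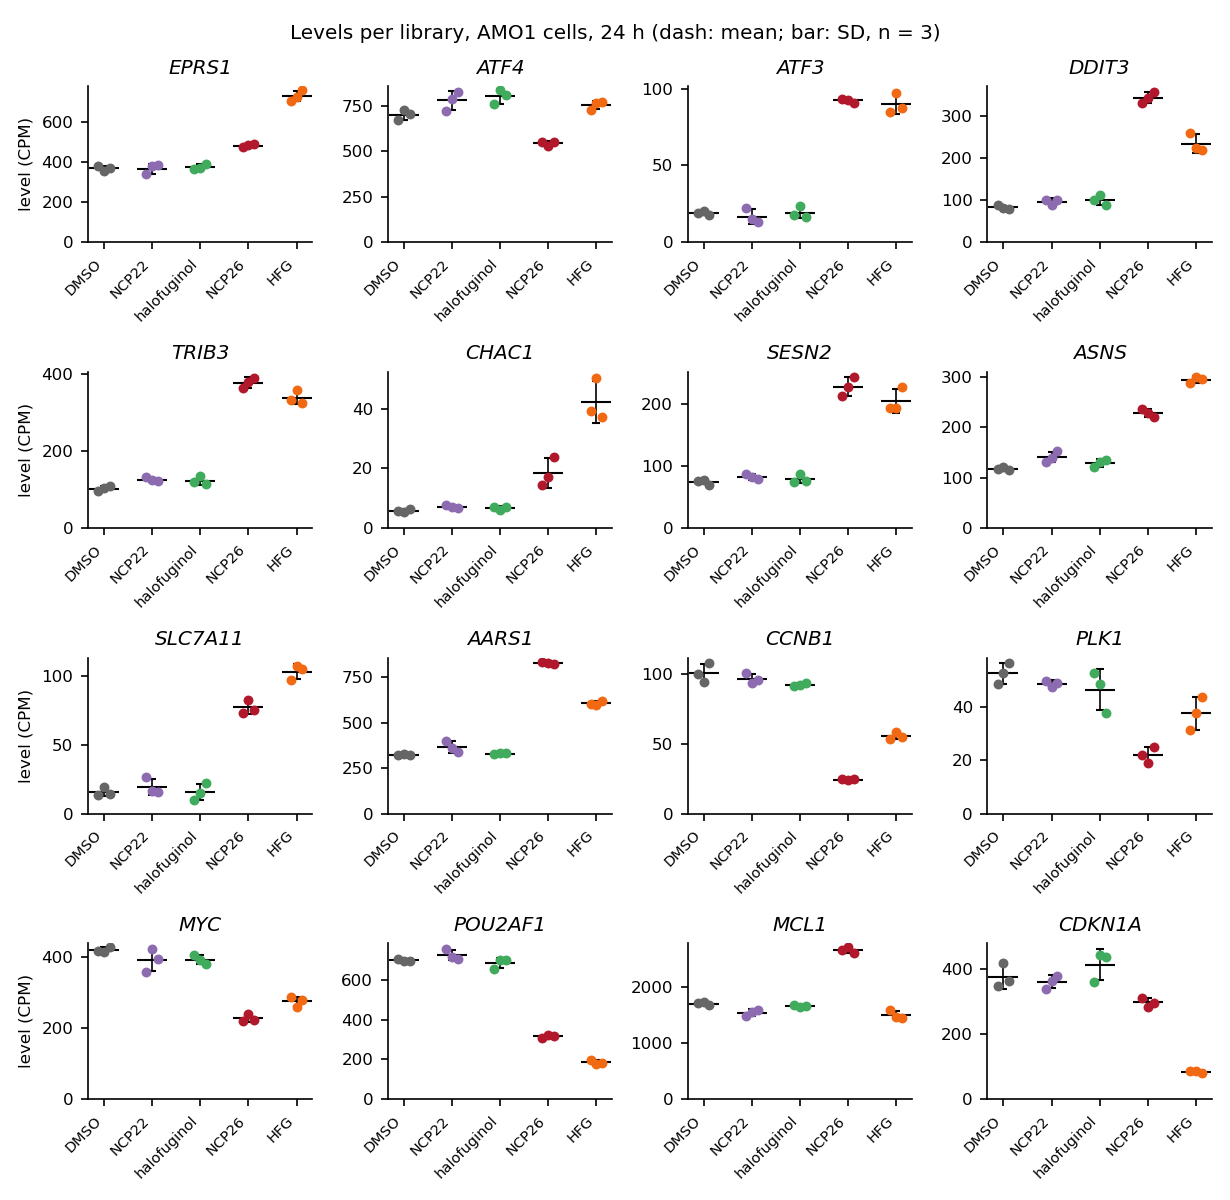
Levels (CPM, linear axes from 0) of 16 genes in the 3 libraries of each 24 h group of AMO1 cells, as points, with the mean as a dash and the SD as a bar. NCP22 and halofuginol libraries lie close to DMSO in these genes, while NCP26 and HFG libraries lie apart from DMSO in most, at like levels for ATF3 and SESN2 and at unlike levels for CDKN1A, MCL1, CCNB1 and EPRS1.

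mRNAs of the translation apparatus were lower. Of 79 cytosolic ribosomal protein genes tested, 78 fell and none rose, with a median of -0.41. RPS15 went from 892, 892 and 918 CPM to 409.8, 410.2 and 417 CPM and RPL7A from 2033, 2056 and 2072 CPM to 1048, 1053 and 1044 CPM, a fall of close to 2-fold for both (log2 -1.13 ± 0.04 and -0.97 ± 0.03, adjusted p = 1.4e-20 and 1.0e-20). Ribosome biogenesis genes fell in 19 of 24 cases (median -0.56), among them FBL, the rRNA methyltransferase fibrillarin, from 261, 263 and 269 CPM to 113, 109 and 109 CPM (log2 -1.26 ± 0.06), and NOP16 and GNL3 (log2 -1.08 ± 0.14 and -1.0 ± 0.09). RRN3, the initiation factor of RNA polymerase I, was the biogenesis gene that rose (log2 0.53 ± 0.09). Translation factors fell in 15 and rose in 6 of 25 cases (median -0.36). EIF3B and EIF4B fell (log2 -1.01 ± 0.05 and -0.87 ± 0.04), while EIF1, which guards start codon choice, and the release factor gene ETF1 rose (log2 0.39 ± 0.04 and 0.55 ± 0.06).

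Protein folding genes of the endoplasmic reticulum were lower more often than higher. Of 22 tested ER chaperone and unfolded protein response genes, 12 fell and 4 rose (median -0.33). HSPA5, encoding the chaperone BiP, was at 1089.7, 1105 and 1129 CPM with DMSO and 608, 618 and 609.8 CPM with NCP26. The groups were well apart (log2 -0.85 ± 0.04, adjusted p = 3.4e-18), and CALR and PDIA4 fell further (log2 -1.08 ± 0.04 and -1.07 ± 0.05). ERN1, encoding the stress sensor IRE1, rose from 424, 411 and 367 CPM to 760.3, 807 and 755 CPM (log2 0.96 ± 0.05), and ATF6, another sensor, rose as well (log2 0.57 ± 0.07). Cytosolic heat shock genes fell in 14 and rose in 4 of 22 cases (median -0.53). HSPA8, the constitutive HSP70 chaperone, dropped 4.0-fold from 1131, 1057 and 1160.3 CPM to 272, 264 and 298 CPM (log2 -2.0 ± 0.05, adjusted p = 8.1e-25). STIP1 and HSP90AA1 rose (log2 0.60 ± 0.06 and 0.28 ± 0.05).

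Degradation pathways were mixed. Proteasome subunit genes rose in 15 and fell in 7 of 30 cases (median 0.09), with PSMD7 rising most (125, 115 and 123 CPM to 211, 209 and 195 CPM) and PSMC3 falling most (log2 -0.57 ± 0.08). Autophagy genes rose in 10 and fell in 2 of 21 cases (median 0.11). The cargo receptor gene SQSTM1 rose 2.85-fold from 558, 554 and 541 CPM to 1603, 1546 and 1555 CPM (adjusted p = 1.9e-24) and the autophagosome protein gene MAP1LC3B 2.57-fold. Regulators of mTORC1, the kinase complex that couples amino acid supply to growth, rose in 11 and fell in 5 of 22 cases (median 0.20). Besides SESN2, RRAGC and FLCN, which act at the lysosome, rose (log2 0.97 ± 0.09 and 0.95 ± 0.07), and DEPDC5 and NPRL2, subunits of the inhibitory GATOR1 complex, fell (log2 -1.05 ± 0.17 and -0.94 ± 0.14).

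Mitosis and replication genes had the lowest medians among lists with at least 5 tested members. All 36 mitosis genes fell, 29 of them at least 2-fold, with a median of -1.29, and 25 of 28 replication and origin licensing genes fell (median -0.94) with none higher. CCNB1 (chr5:69167135-69178245), cyclin B1, stood at 101, 94.2 and 108 CPM in the DMSO libraries and at 24.5, 23.9 and 24.8 CPM in the NCP26 libraries. It fell 4.13-fold with a narrow spread in both groups (log2 -2.05 ± 0.10, adjusted p = 9.7e-18). PTTG1, encoding securin, and MYBL2, a transcription factor of cycling cells, fell 4.65-fold and 4.22-fold, MYBL2 from 299, 295 and 318 CPM to 72.2, 76 and 68 CPM. PLK1 (chr16:23677656-23690367), a mitotic kinase, fell from 48.7, 52.7 and 56.6 CPM to 22, 19.1 and 24.8 CPM (log2 -1.27 ± 0.12, adjusted p = 6.9e-11). Among replication genes, CDT1, which loads the replicative helicase, fell 4.26-fold, from 118, 122 and 119.9 CPM to 28.8, 27.2 and 28.4 CPM. RRM2, the ribonucleotide reductase subunit, fell 3.52-fold and TK1, thymidine kinase, 3.53-fold. MCM2, a subunit of the helicase, fell less (128, 117 and 118 CPM to 71.6, 78 and 76.6 CPM, log2 -0.67 ± 0.07, adjusted p = 3.3e-09).

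Many genes of late cell cycle carry the cell cycle homology region (CHR), written TTTGAA, near the start of transcription. The same windows were searched for it on both strands, and the windows of 3 mitosis genes that fell are shown with each match in capitals. The match began -29 bases from the start in PLK1 and -20 in PRC1, and ANLN held 2 matches side by side, from -26 and from -20, so its capitals form 1 run.
PLK1 promoter, chr16:23678639-23678938, plus strand: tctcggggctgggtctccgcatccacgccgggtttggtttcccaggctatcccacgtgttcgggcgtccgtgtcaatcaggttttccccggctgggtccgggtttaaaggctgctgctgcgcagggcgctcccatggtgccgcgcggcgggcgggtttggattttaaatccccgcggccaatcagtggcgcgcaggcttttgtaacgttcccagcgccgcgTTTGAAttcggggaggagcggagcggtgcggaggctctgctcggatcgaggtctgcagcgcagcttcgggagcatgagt
ANLN promoter, chr7:36389612-36389911, plus strand: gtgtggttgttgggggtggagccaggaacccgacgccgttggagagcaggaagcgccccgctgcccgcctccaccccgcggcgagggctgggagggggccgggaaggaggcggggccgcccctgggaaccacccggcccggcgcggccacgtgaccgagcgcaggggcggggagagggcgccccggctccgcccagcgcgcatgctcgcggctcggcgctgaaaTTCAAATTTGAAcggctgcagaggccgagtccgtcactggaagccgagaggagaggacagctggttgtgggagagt
PRC1 promoter, chr15:90994486-90994785, minus strand: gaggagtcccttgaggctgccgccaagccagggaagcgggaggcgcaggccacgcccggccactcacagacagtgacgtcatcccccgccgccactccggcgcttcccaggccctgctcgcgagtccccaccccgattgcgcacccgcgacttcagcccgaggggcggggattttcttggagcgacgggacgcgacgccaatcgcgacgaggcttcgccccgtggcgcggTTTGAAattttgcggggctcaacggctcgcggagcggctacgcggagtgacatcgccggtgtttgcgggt
ANLN, an actin-binding protein of the cleavage furrow, fell from 37.3, 35.2 and 35.2 CPM to 13, 9.7 and 12.3 CPM (log2 -1.61 ± 0.15, adjusted p = 5.9e-11), and PRC1, which bundles microtubules of the central spindle, from 98.0, 98.9 and 105 CPM to 36.6, 32.7 and 32.6 CPM (log2 -1.57 ± 0.09, adjusted p = 8.3e-16). 60.1% of the 31-base words of PRC1 occur in other genes. The CHR letters were found in 15.4% of all windows, in 9.56% of windows of tested genes, in 15.8% of the 532 windows of genes at least 2-fold lower, in 19 of 30 windows (63.3%) of mitosis genes and in 1 of 24 (4.17%) of replication genes. The windows of PTTG1, MYBL2 and CCNB1, mitosis genes that fell further than the 3 shown, held no CHR match. CCAAT, the letters bound by NF-Y, was found in 37.7% of windows of tested genes. It was found in 66.7% of those of mitosis genes and in 62.5% of those of replication genes.

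Genes of the G1 phase fell in 14 and rose in 1 of 21 cases (median -0.48). CCNE1, cyclin E1, fell 3.84-fold (20.5, 20.6 and 25.3 CPM to 5.89, 5.82 and 5.69 CPM), and CDC25A and E2F2 fell (log2 -1.19 ± 0.12 and -1.23 ± 0.10). CCND2, a D-type cyclin, rose slightly, from 592, 560.3 and 553 CPM to 666, 666 and 711 CPM (log2 0.27 ± 0.04, adjusted p = 3.6e-06). In a fit with a set term the change was -0.11 ± 0.23 and not called (adjusted p = 0.78). With so wide an error, that fit does not decide the direction. CCND1 was low in both groups, at 9.51, 7.26 and 10.8 CPM and 8.68, 11 and 12.3 CPM, which overlapped (log2 0.21 ± 0.22, adjusted p = 0.41). CDKN1A (chr6:36676460-36687337), encoding the CDK inhibitor p21, was slightly lower with NCP26, at 346, 417 and 362 CPM and 311, 284 and 296 CPM (log2 -0.34 ± 0.06, adjusted p = 5.4e-06). The 21 tested p53 targets were split, 9 higher and 7 lower with a median of 0.05. TNFRSF10B, which encodes a death receptor for TRAIL, rose 2.11-fold and FDXR fell 2.24-fold. Of 35 listed replication-dependent histone genes, 19 were found in the count table by symbol and 10 passed the filter on low counts. All 10 rose (median 1.26), H4C8 3.25-fold and H2AC6 from 50.5, 58.3 and 52.2 CPM to 129, 130.4 and 124 CPM. The filter can pass a gene that is high in the NCP26 libraries only, so the count of rises may partly reflect the filter. With NCP22 or halofuginol against DMSO, 8 members of the list passed it. The mRNAs of replication-dependent histone genes normally end without a poly(A) tail. The libraries were made from polyadenylated RNA, so that these values count the polyadenylated share only.

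In the apoptosis machinery, 10 genes rose and 3 fell of 16 in the BCL2 family (median 0.31) and 12 rose and 2 fell of 20 among death receptors and caspases (median 0.38). Both sides of the BCL2 family moved. PMAIP1, the pro-apoptotic NOXA, rose 2.96-fold from 21.6, 23.4 and 21.9 CPM to 68.2, 65 and 65 CPM (adjusted p = 2.8e-14). MCL1 (chr1:150560895-150579738), the anti-apoptotic partner that NOXA binds, rose as well, from 1707, 1726 and 1681 CPM to 2658, 2714 and 2612 CPM. The MCL1 groups were far apart (log2 0.64 ± 0.03, adjusted p = 6.4e-17). BCL2L1 and BCL2, both anti-apoptotic, rose (log2 0.61 ± 0.10 and 0.26 ± 0.05), and BCL2L11, the pro-apoptotic BIM, fell (log2 -0.34 ± 0.06). CFLAR, which blocks caspase 8 activation, rose (log2 0.73 ± 0.06). FADD, an adaptor of death receptors, rose (log2 0.87 ± 0.12), but 56.8% of its 31-base words are shared with other genes.

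Of 16 tested transcription factors of plasma cells, 4 rose and 9 fell (median -0.20). POU2AF1 (chr11:111352255-111455630), the B cell coactivator OCA-B, was the member that fell most, from 703, 696 and 696 CPM to 308, 322 and 317 CPM. This 2.21-fold fall left the groups well apart (log2 -1.14 ± 0.04, adjusted p = 2.9e-20). IRF4, on which myeloma cells are known to depend, stood at 603, 608 and 556 CPM and 549, 541 and 535 CPM. The change was small (log2 -0.12 ± 0.04, adjusted p = 0.02), and against the libraries of NCP22 and halofuginol, whose sample numbers are of the same set, it was -0.02 ± 0.06 (adjusted p = 0.78) and 0.01 ± 0.05 (adjusted p = 0.93). PRDM1, encoding BLIMP1, fell (log2 -0.34 ± 0.07), TCF3, the E-protein E2A, (log2 -0.57 ± 0.05) and IKZF1 (log2 -0.84 ± 0.07), while IKZF3 and BACH2, a repressor of plasma cell fate, rose (log2 0.64 ± 0.10 and 1.17 ± 0.12). MYC fell from 416, 412 and 427 CPM to 220.1, 240.3 and 222 CPM (log2 -0.88 ± 0.05, adjusted p = 5.0e-16), as did the kinase genes PIM1 and PIM2 (log2 -0.90 ± 0.06 and -0.53 ± 0.04), within a list of 14 MYC network and PIM genes with 4 higher and 7 lower.

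Among secreted and surface products, JCHAIN fell and SLAMF7 rose. JCHAIN, which joins polymeric immunoglobulin, was at 3649, 3615 and 3865 CPM with DMSO and 1013, 1038 and 1001 CPM with NCP26. The fall of 3.64-fold had the smallest adjusted p of the genes named here (log2 -1.86 ± 0.04, adjusted p = 1.2e-27). MZB1, an ER chaperone of immunoglobulin, fell 2.6-fold. Of 21 tested myeloma surface antigens 4 rose and 10 fell (median -0.05). SLAMF7, the antigen bound by elotuzumab, rose 3.46-fold from 96.9, 98.7 and 111 CPM to 343, 372 and 352 CPM (adjusted p = 1.0e-21), and CD28 and ICAM1 rose (log2 0.69 ± 0.04 and 0.84 ± 0.05). GPRC5D and CD44 fell (log2 -1.20 ± 0.16 and -1.24 ± 0.09). SDC1, which encodes CD138, fell from 2437, 2496 and 2689.8 CPM to 2158, 2122 and 2212 CPM (log2 -0.23 ± 0.04), but against the halofuginol libraries of the same set the difference was -0.11 ± 0.05 and not called (adjusted p = 0.068). TNFRSF17, which encodes BCMA, was at 121, 120.2 and 113 CPM and 125, 113 and 123 CPM, with overlapping groups (log2 0.04 ± 0.07, adjusted p = 0.66).

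In metabolism, lipid synthesis and glycolysis were lower. Of 25 tested sterol and fatty acid synthesis genes, 24 fell and none rose (median -0.89). FASN, fatty acid synthase, fell 4.79-fold from 256, 264 and 282 CPM to 55.2, 64.4 and 48.8 CPM (adjusted p = 1.2e-21), and INSIG1, a feedback protein of sterol sensing, 4.6-fold. CCAAT was present in 14 of 19 windows (73.7%) of this list. For the sterol regulatory element, only 1 spelling was searched, in the same windows. This spelling matched in 1 of 19 windows (5.26%), that of SREBF2, against 9 of 8755 windows (0.103%) of tested genes. It matched in 0 of the 532 windows of genes at least 2-fold lower. Other spellings and sites outside the windows were not searched, so these counts do not show which genes lack the element. Glycolysis genes fell in 20 and rose in 1 of 22 cases (median -0.57). ALDOC fell 3.65-fold (218, 239 and 251 CPM to 65.1, 65.3 and 64.1 CPM) and GAPDH fell from 11386, 12138 and 11994 CPM to 6072, 5701 and 5845 CPM (log2 -1.01 ± 0.03, adjusted p = 3.2e-23). Of 15 hypoxia response genes 10 fell and 4 rose (median -0.49), HILPDA and ANKRD37 (log2 -1.42 ± 0.07 and -1.57 ± 0.08), while VEGFA rose (log2 0.59 ± 0.05).

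Nuclear genes for respiratory chain subunits fell in 24 and rose in 1 of 32 cases (median -0.44), NDUFS3 of complex I most (log2 -1.21 ± 0.10), and all 13 mRNAs encoded in mitochondrial DNA fell (median -0.44), among them MT-ND4 from 7838, 7916 and 7902 CPM to 4757, 5074 and 4891 CPM (log2 -0.68 ± 0.03). Targets of the oxidative stress factor NRF2 were split, 4 higher and 4 lower of 16 (median -0.01). HMOX1, haem oxygenase, rose 4.99-fold from 21.9, 22.7 and 22.7 CPM to 115, 119 and 104 CPM (adjusted p = 1.7e-19), and with SLC7A11 it stood far above the rest of the list. The pentose phosphate enzyme gene TKT fell 2.62-fold.

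Immediate early and AP-1 genes were mixed, 6 higher and 8 lower of 19 (median -0.19). JUN rose 3.25-fold (35.8, 41.9 and 37.4 CPM to 121, 132 and 124 CPM) and KLF6 2.34-fold, while KLF2 fell 2.83-fold and JUNB fell (log2 -0.72 ± 0.07). NF-kB genes rose in 9 and fell in 2 of 14 cases (median 0.41), NFKBIZ 2.73-fold and NFKBIA, the NF-kB inhibitor, 1.75-fold. Interferon-stimulated genes rose in 12 and fell in 2 of 21 cases (median 0.45). Against DMSO, 18 members of this list passed the filter on low counts with NCP22 and 19 with halofuginol. Some, such as IFIT2, can have passed through the NCP26 libraries alone, so the count of rises may partly reflect the filter. IFIT2, an antiviral RNA-binding protein gene, went from 1.83, 1.64 and 0.597 CPM to 17.4, 18.8 and 18.6 CPM, a 14.2-fold rise (log2 3.83 ± 0.29, adjusted p = 1.1e-12), and MX1 rose 3.71-fold from 19, 17.8 and 22.1 CPM to 75.3, 66.3 and 78.7 CPM. IRF1, a factor that drives such genes, fell (log2 -0.63 ± 0.09). Histone and DNA modifying enzymes rose in 22 and fell in 15 of 42 cases (median 0.21). DNMT3B, a DNA methyltransferase, fell 4.22-fold (45, 37.3 and 40.2 CPM to 9.61, 10.4 and 8.68 CPM), TET1 fell 3.0-fold, and TET3 rose 2.54-fold.

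Genes were also ranked among those called, with a mean of at least 5 CPM over the 6 libraries and no overlap between the groups. The 10 largest rises were those of IFIT2, TRPM8, LRRN2, SERINC2, ARVCF, PLA2G4C, ENSG00000205021, IFIT3, ESRP1 and CSF1. TRPM8, a cold-sensing cation channel, was at 1.83, 3.05 and 1.59 CPM with DMSO and 28.2, 25.9 and 26 CPM with NCP26 (12.2-fold, adjusted p = 1.5e-14). CSF1, the macrophage colony-stimulating factor, rose 5.01-fold and PLA2G4C, a phospholipase, 5.42-fold (6.22, 6.33 and 5.77 CPM to 34.7, 34.9 and 29.6 CPM). Among the 10 largest falls were SPATA13, JAKMIP1, SLC2A5, KCNS3, RGPD2, ENSG00000260007, GAGE12F, GAGE12G and SUSD3. SLC2A5, the fructose transporter, fell 7.32-fold (22.7, 25.8 and 22.7 CPM to 3.41, 3.88 and 2.39 CPM) and KCNS3, a potassium channel subunit, 6.64-fold. RGPD2, GAGE12F and GAGE12G share 97.3% or more of their 31-base words with other genes, and GAGE12F and GAGE12G have identical values, so these are uncertain as single genes. ENSG00000260007 shares 71.9% and SPATA13 38.3% of such words, so their assignment is less certain too. Most of the ranked genes are expressed at low levels, where a few reads make a large fold. IFIT2, LRRN2, ARVCF, IFIT3 and ESRP1 did not pass the filter on low counts in NCP22 against DMSO. They can have passed it here through the NCP26 libraries alone.

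Related compounds at the same dose and time were compared with NCP26 in 3 pairs, within 1 set of sample numbers. These comparisons share the NCP26 libraries with each other and with the comparison against DMSO, so they are not independent of it, and p-values were adjusted over genes within each pair and not over the pairs. NCP22 is the parent of NCP26 and carries a cyclohexyl ring where NCP26 has a piperidinyl ring. NCP26 differed from NCP22 in 5603 of 10778 genes (52.0%), 2834 higher (26.3%) and 2769 lower (25.7%), with 430 (3.99%) and 616 (5.72%) at least 2-fold. NCP22 itself differed from DMSO in 0 of 10781 genes (0.0%) by edgeR and in 3 by DESeq2, while 638 genes (5.92%) had an unadjusted p below 0.05. Without NCP22 replicate 1, edgeR called 144 genes. For DDIT3, the NCP22 libraries stood at 101, 87 and 101 CPM, below all 3 NCP26 libraries (log2 difference of NCP26 from NCP22 1.87 ± 0.08, adjusted p = 7.3e-10), and the 95% interval of NCP22 against DMSO ran from 0.04 to 0.41. For CCNB1, NCP22 stood at 101, 93.7 and 95.6 CPM (NCP26 against NCP22 -1.96 ± 0.10, adjusted p = 2.2e-09), and its interval against DMSO was -0.24 to 0.11. The interval for EPRS1 was -0.14 to 0.14 and that for CHAC1, where counts are few, -0.25 to 0.83.

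Halofuginol and HFG are both derivatives of febrifugine, which compete at the proline and tRNA sites rather than the ATP site. NCP26 differed from halofuginol in 5986 of 10779 genes (55.5%), 2959 higher (27.5%) and 3027 lower (28.1%). Halofuginol differed from DMSO in 20 of 10943 genes (0.183%) by edgeR and 65 by DESeq2, and 1129 genes (10.3%) had an unadjusted p below 0.05. Leaving out 1 DMSO library lowered the 20 to 3 (replicate 1), 3 (replicate 2) and 7 (replicate 3), and leaving out halofuginol replicate 3 to 13. FASN was among the 20 (log2 -0.55 ± 0.06, adjusted p = 8.7e-05). With halofuginol, DDIT3 was at 100.0, 112 and 88.6 CPM and CCNB1 at 91.7, 92.7 and 93.7 CPM, against which NCP26 differed by 1.78 ± 0.07 and -1.92 ± 0.10 on the log2 scale (adjusted p = 8.4e-17 and 7.4e-15). The 95% intervals of halofuginol against DMSO ran from 0.11 to 0.48 for DDIT3 and from -0.29 to 0.04 for CCNB1.

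NCP26 differed from HFG in 4842 of 10775 genes (44.9%), 2433 higher (22.6%) and 2409 lower (22.4%) with NCP26, of which 453 (4.2%) and 404 (3.75%) by at least 2-fold. Several ISR genes did not pass the test of the difference. ATF3 stood at 85, 97.5 and 87.4 CPM with HFG, a log2 difference of NCP26 from HFG of 0.05 ± 0.08 with a 95% interval from -0.11 to 0.21. For SLC3A2 the interval ran from -0.04 to 0.12, for SESN2 from 0.02 to 0.31 (adjusted p = 0.067), and for TRPM8, which is outside the ISR lists, from -0.26 to 0.42. Other ISR genes did differ. DDIT3 was lower with HFG, at 259, 223 and 219.7 CPM (log2 difference 0.57 ± 0.06, adjusted p = 6.3e-07). EPRS1 was higher with HFG, at 704, 723 and 756 CPM (log2 difference -0.58 ± 0.04, adjusted p = 2.3e-09), as were CHAC1 at 39.4, 50.2 and 37.2 CPM (-1.17 ± 0.17, adjusted p = 2.4e-05), ATF4 at 725, 764 and 767 CPM (-0.46 ± 0.04, adjusted p = 5.1e-08) and ASNS (-0.36 ± 0.05). By list, NCP26 stood above HFG in 3 and below it in 13 of the 20 amino acid synthesis genes (median -0.46). For the 23 genes of the cytosolic synthetase list the counts were 3 and 11 (median -0.21). The lists of ISR transcription factors and of ISR effectors leaned the other way. Their counts were 6 above and 1 below of 9 (median 0.26), and 9 and 3 of 16 (median 0.18). Amino acid transporters were split, 4 and 6 of 16 (median 0.09). The median over all genes was -0.0027.

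Outside the ISR the same pair differed too. CDKN1A was at 85.6, 86.6 and 79.4 CPM with HFG, below every NCP26 library (log2 difference of NCP26 from HFG 1.84 ± 0.07, adjusted p = 2.0e-13), and 19 of 21 p53 targets were higher with NCP26 and none lower (median 1.04). MCL1 was at 1589, 1468 and 1442 CPM with HFG (0.84 ± 0.03, adjusted p = 1.8e-12) and SDC1 at 1123, 1042 and 986 CPM (1.06 ± 0.04, adjusted p = 5.4e-13), both below NCP26. Lower with NCP26 than with HFG were CCNB1 (HFG 53.6, 58.6 and 55.2 CPM, -1.18 ± 0.11, adjusted p = 8.9e-08), JCHAIN (HFG 2339, 2234 and 2318 CPM, -1.16 ± 0.03), HSPA8 (-1.21 ± 0.05) and IFIT2 (HFG 45.6, 59.4 and 47.5 CPM, -1.47 ± 0.14, adjusted p = 8.1e-08). The lists followed with 17 of 36 mitosis genes lower and 1 higher (median -0.33), 63 of 79 ribosomal protein genes lower and 5 higher (median -0.27), and all 13 mitochondrially encoded mRNAs lower (median -0.68). In the other direction went glycolysis genes, with 18 of 22 higher and 2 lower (median 0.44), although GAPDH itself gave an interval from -0.04 to 0.05. For replication genes 7 of 27 were higher and none lower, and the intervals of RRM2 and CDT1 ran from -0.17 to 0.22 and from -0.38 to 0.28.

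The effect of NCP26 at 24 h was set against that at 6 h in the same line by a test of the difference between the 2 effects, with DMSO libraries of each time. All 6 h libraries carry numbers of the set that holds the DMSO libraries of 24 h. The 6 h samples were frozen overnight, while the 24 h samples were kept on ice. In this test, time, set and storage therefore cannot be told apart. The NCP22 and halofuginol libraries, of the same set as NCP26 at each time, did not enter it. At 6 h, 3975 of 10666 genes (37.3%) were called, 18.1% higher and 19.2% lower, and the effect differed between times in 1932 of 11059 genes (17.5%), more positive at 24 h in 814 (7.36%) and more negative in 1118 (10.1%). Of these, 733 had the same sign at both times and were larger at 24 h, 286 were smaller, and 886 had opposite signs, of which 153 were called at both times. Replicate pairs of the 6 h NCP26 libraries differed more than those of 24 h, and the 6 h replicate 1 had 15581 detected genes against 13577 and 13636 in the others.

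Cell cycle genes had smaller effects at 6 h. CCNB1 stood at 86.6, 93.2 and 82.8 CPM with DMSO and 68.1, 56.5 and 55.1 CPM with NCP26 at 6 h (log2 -0.55 ± 0.12), and its effect was more negative at 24 h (24 h minus 6 h -1.50 ± 0.15, adjusted p = 2.4e-06). For 33 of 36 mitosis genes and 20 of 28 replication genes the effect was more negative at 24 h, and for none more positive (medians of the difference -0.96 and -0.76, against -0.02 over all genes). Among ISR genes, ATF3 had risen further at 6 h (log2 2.92 ± 0.15 against 2.30 ± 0.10, difference -0.63 ± 0.18, adjusted p = 0.023), while TRIB3, CHAC1 and SESN2 rose further by 24 h (differences 0.39 ± 0.11, 0.96 ± 0.29 and 0.87 ± 0.12). The difference for DDIT3 did not pass the test (log2 1.86 ± 0.10 at 6 h, difference 0.21 ± 0.11, adjusted p = 0.23), nor did that for ASNS (0.05 ± 0.10) or EPRS1 (0.09 ± 0.10). Ribosomal protein genes were called lower in 8 and higher in none of 79 at 6 h, and the effect was more negative at 24 h for 3 of them (median of the difference -0.20).

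Some genes changed direction between the times, and others lost most of an early change. HMOX1 was lower with NCP26 at 6 h, at 27.8, 40.3 and 34.3 CPM and 8.21, 12.3 and 10.5 CPM (log2 -1.70 ± 0.19), and higher at 24 h (difference 4.01 ± 0.20, adjusted p = 6.1e-10). CDKN1A fell steeply at 6 h, from 441, 434 and 393 CPM to 67.7, 70.4 and 69.2 CPM (log2 -2.61 ± 0.10), with a smaller deficit at 24 h (difference 2.27 ± 0.12, adjusted p = 6.1e-10). At 6 h, 13 of 20 p53 targets were lower and none higher (median -0.65), and 13 had a more positive effect at 24 h. FOSL2 was higher at 6 h and lower at 24 h (log2 1.14 ± 0.20 and -0.61 ± 0.12). IRF4 was clearly lower at 6 h (297, 314 and 345 CPM to 139.7, 159.6 and 145 CPM, log2 -1.10 ± 0.10) and close to DMSO at 24 h (difference 0.98 ± 0.11, adjusted p = 8.3e-06), with PRDM1, SDC1, TNFRSF17 and PIM2 differing the same way (0.43 ± 0.12, 0.64 ± 0.11, 0.63 ± 0.16 and 0.62 ± 0.10). MCL1 and BCL2, higher at 24 h, gave log2 -0.09 ± 0.11 and -0.18 ± 0.10 at 6 h, neither called (differences 0.73 ± 0.11 and 0.44 ± 0.11). IFIT2 was at 3.64, 3.15 and 5.35 CPM and 4.69, 7.22 and 5.9 CPM at 6 h (difference 3.24 ± 0.47, adjusted p = 0.00011). All 14 histone genes tested at 6 h were higher (median 2.54), and the effect was less positive at 24 h for 5. Here too the filter on low counts can pass genes through the NCP26 libraries alone.

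**Figure D3:**
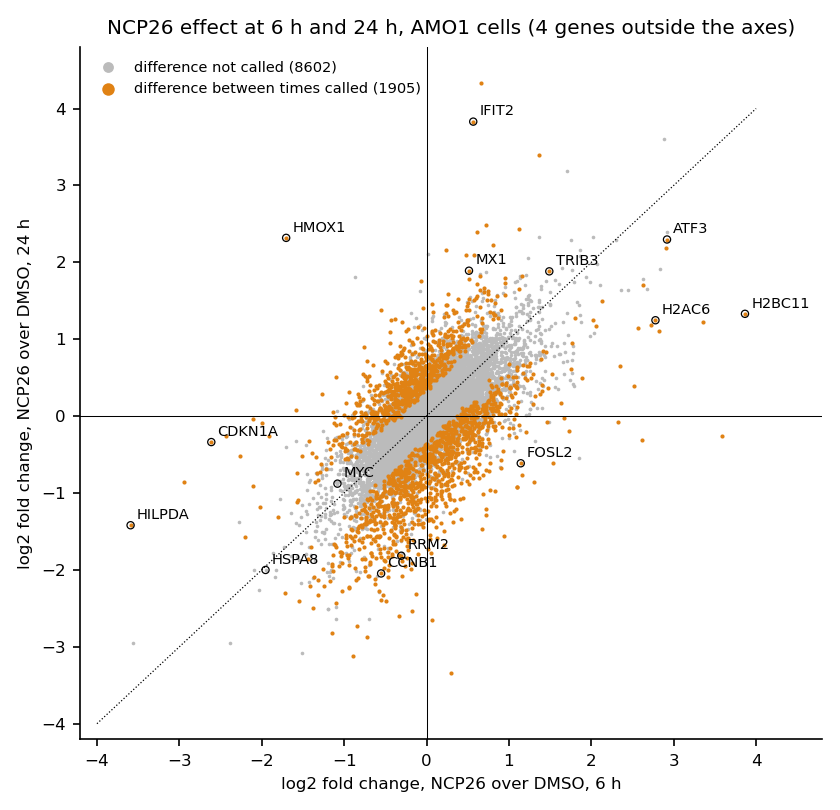
Log2 fold change of NCP26 over DMSO at 6 h (horizontal) and 24 h (vertical) in AMO1 cells for 10507 genes, with the 1905 among them whose effect differed between the times in orange and the line of equal effects dotted (4 genes lie outside the axes). CCNB1 and RRM2 lie below the line, MX1 and IFIT2 above it, and HMOX1 changes sign from -1.70 to 2.32.

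In L363-CFZr cells the same comparison was limited by DMSO replicate 2, which stood apart from the other DMSO libraries of that line (r of 0.936 to 0.938 with them, against 0.988 between the others). With all libraries, 757 of 10676 genes (7.09%) were called in L363-CFZr, 2.71% higher and 4.38% lower, and the effect differed between the lines in 608 of 11239 (5.41%), more positive in AMO1 for 2.44% and more negative for 2.97%. Without that library the counts were 3123 of 10916 (28.6%, with 13.1% higher and 15.5% lower) and 2407 of 11387 (21.1%), with the effect more positive in AMO1 for 1178 (10.3%) and more negative for 1229 (10.8%), and 115 genes were called in opposite directions in the lines. The L363-CFZr libraries were of a further set of sample numbers, NCP26 and DMSO alike. In AMO1 the NCP26 and DMSO libraries were of different sets, so a difference between sets would enter the AMO1 effect only. In this test line and set therefore cannot be told apart. The NCP22 and halofuginol libraries of each line, of the same set as its NCP26 libraries, did not enter it. Leaving out instead any 1 of the other 5 NCP26 and DMSO libraries of the line gave 112 to 287 called genes in L363-CFZr. For the difference between the lines, leaving out 1 AMO1 library or 1 L363-CFZr NCP26 library gave 282 to 357. Values below are without DMSO replicate 2, and for each gene named the difference between the lines with it kept follows.

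ATF4 mRNA rose in L363-CFZr, from 515, 321 and 478 CPM in the 3 DMSO libraries to 923, 939 and 902 CPM (log2 0.89 ± 0.06), whereas it fell in AMO1. The effects differed (AMO1 minus L363-CFZr -1.23 ± 0.07, adjusted p = 3.6e-10, and -1.41 ± 0.21 with the library kept). Several ISR target genes rose further in L363-CFZr. For CHAC1 the log2 change was 4.21 ± 0.22 there against 1.67 ± 0.22 in AMO1 (difference -2.52 ± 0.37, and -2.42 ± 0.34 with the library kept). SESN2 changed by 3.08 ± 0.10 (difference -1.43 ± 0.12, kept -1.34 ± 0.15), TRIB3 by 2.91 ± 0.09 (difference -0.99 ± 0.10, kept -1.06 ± 0.14) and ASNS by 2.32 ± 0.08 (difference -1.32 ± 0.09, kept -1.39 ± 0.13). The differences of ATF3 (-0.10 ± 0.21, adjusted p = 0.8, kept -0.23 ± 0.22) and DDIT3 (-0.05 ± 0.14, adjusted p = 0.86, kept -0.31 ± 0.28) did not pass the test in either case. Amino acid synthesis genes were higher in 13 and lower in 3 of 19 cases in L363-CFZr (median 1.32), and the effect was more negative in AMO1 for 15 and more positive for none (12 and none with the library kept).

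**Figure D4:**
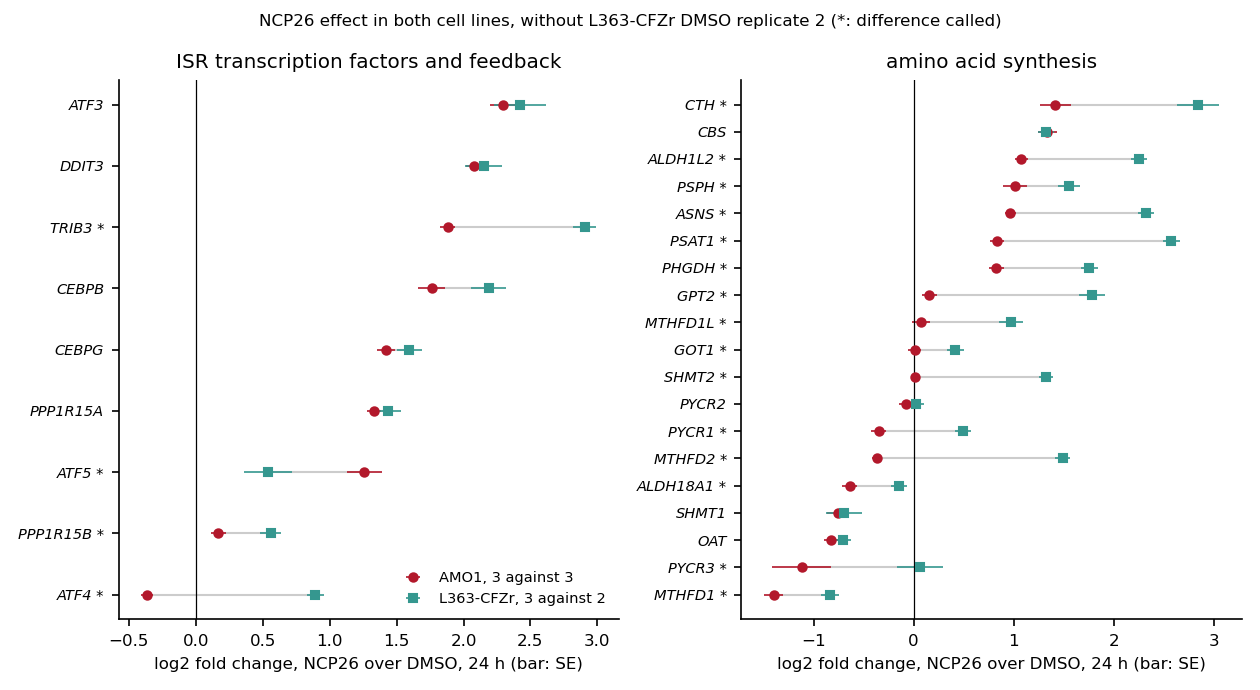
Log2 fold change of NCP26 over DMSO at 24 h in AMO1 cells (red circles, 3 against 3 libraries) and in L363-CFZr cells without DMSO replicate 2 (green squares, 3 against 2), with SE bars, for ISR transcription factors and for amino acid synthesis genes. An asterisk marks genes whose effect differed between the lines, among them ATF4, which fell by 0.36 in AMO1 and rose by 0.89 in L363-CFZr, and SHMT2, PSAT1 and MTHFD2.

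Cell cycle and lipid genes fell in L363-CFZr as well. Of the mitosis genes 34 were lower in L363-CFZr (median -0.93), of replication genes 24, of sterol and fatty acid genes 22 and of respiratory chain genes 28, with none higher. With the library kept, these counts were 23, 17, 14 and 1, again with none higher. Ribosomal protein genes were lower in 10 and higher in none (median -0.09), and the effect was more negative in AMO1 for 66 of them. With the library kept, none of them was called lower or higher in L363-CFZr (median 0.24) and none differed between the lines. POU2AF1 and MYC, which fell in AMO1, changed by -0.05 ± 0.09 and -0.17 ± 0.08 in L363-CFZr (differences -1.06 ± 0.08 and -0.68 ± 0.09, kept -0.94 ± 0.15 and -0.69 ± 0.12). HMOX1 fell there (log2 -1.42 ± 0.10, difference 3.77 ± 0.12, kept 3.56 ± 0.25), and CDKN1A rose (log2 1.0 ± 0.18, difference -1.30 ± 0.18, kept -1.48 ± 0.21). SLAMF7 stood at 94.3, 86.4 and 87 CPM with DMSO and 70.5, 75.4 and 82.5 CPM with NCP26 in L363-CFZr, and the effects differed (difference 2.08 ± 0.11, kept 2.06 ± 0.14).

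The comparison against DMSO was also checked against the set of sample numbers. With the NCP22 and halofuginol libraries of the same set as control, 6372 genes were called, among them 87.3% of those called against DMSO and none in the opposite direction. PARS2, FARSB, KLHL24, IRF4 and RGPD2 were then no longer called. The paper reports that NCP22 and halofuginol also bind ProRS, so they are not inert controls. Whether a call was lost through the set or through an activity of these compounds was not tested. A further fit took the 18 AMO1 libraries of 24 h with a term for the set. This term rests on the carfilzomib libraries (1 in the set of DMSO and 2 in that of NCP26). Its errors are wide, with an SE of 0.23 for CCND2 and 0.59 for KMT2D. A lost call can come from a wide error as well as from the set, which was not tested. The fit called 2324 of 11236 genes, 1038 higher and 1286 lower. Among them were only 34.3% of those called against DMSO, and none in the opposite direction. Of the 261 tested genes named by rule, 85 were then no longer called and 6 changed direction. Those no longer called included ATF4, EIF2AK4, PARS2, DDIT4, KLHL24, SLC7A6, OAT, PYCR3, KARS1 and FARSB of the stress, amino acid and synthetase genes, RPS15, RPL7A, NOP16, GNL3 and RRN3 of the ribosome genes, and IRF4, PRDM1, IKZF3, BACH2, SDC1 and GPRC5D of the plasma cell genes. Likewise CDKN1A, FDXR, H4C8, BCL2, CFLAR, PSMC3, DEPDC5, VEGFA, IRF1, TET3, ESRP1, RGPD2 and ENSG00000260007 were no longer called. Against NCP22 and halofuginol of the same set, the fall of ATF4 was called (log2 -0.50 ± 0.06 and -0.56 ± 0.06). So was the rise of EIF2AK4 (log2 0.45 ± 0.09 and 0.47 ± 0.10).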

How the data were processed

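Polyadenylated RNA was made into directional libraries and sequenced paired-end by the authors, who pseudoaligned the reads with kallisto and deposited whole-number gene counts, not normalized. The genome is GRCh38 in the study's methods and hg19 in the submitters' processing notes. The kallisto version, annotation and rounding were not stated. Counts were tested with edgeR 4.0.16 in R 4.3.3: TMM scaling, genes kept by filterByExpr (minimum count 10, total 15), quasi-likelihood F-test, Benjamini-Hochberg adjustment over all tested genes, calls at 0.05. Standard errors were computed as the size of the log2 change over the root of its F statistic. Levels are CPM scaled by TMM over the 36 AMO1 libraries, or over the 6 L363-CFZr libraries of 24 h. The fit uses the 3 DMSO and 3 NCP26 libraries, or those of the comparison named, and differences between times or lines are interaction terms. DESeq2 1.42.0 was an alternative. Scripts were tested on simulated data. CPM and folds carry counting error, larger for low counts.

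The members, gene lists and tests were chosen with earlier results of these data known. Named genes are the 10 with the largest change in each direction among called genes with a mean of at least 5 CPM, up to 4 called genes a list in each direction, a panel of 25 genes and 3 in each direction for the other comparisons, 264 in all. A few of these are not reported here. Of the 38 lists, those with values are given. Further genes (ANLN and PRC1) are named for their promoter windows. Gene positions are from GENCODE v44 (GRCh38) by gene ID, with 19299 of 20167 IDs matched. Promoter windows are from RefSeq (GRCh38.p14), 8755 tested genes matched by symbol, with none of chromosome 8 used. Shared sequence is the share of a gene's 31-base words found in other genes. Samples with the same replicate number were checked for shared deviations, and the correlations (0.0066, -0.0138 and 0.0267) showed no pairing.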

Additional observations from a re-analysis of the deposited data

Results flagged for a closer look

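The effect of NCP26 in AMO1 cells differed between 24 h and 6 h in 1932 genes and between AMO1 and L363-CFZr cells in 608 genes, by a test of the difference itself (edgeR, quasi-likelihood, Benjamini-Hochberg adjusted). Both tests used DMSO as the control. With it, time, sample-number set and storage cannot be told apart in the first, and line and set in the second. In both, the NCP26 and DMSO libraries were of different sets only in AMO1 at 24 h. The named genes among them are given as the log2 difference of the effects.

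Between the times, a positive value means a more positive effect at 24 h. The stress genes gave -0.63 (ATF3), 0.96 (CHAC1), 0.39 (TRIB3) and 0.87 (SESN2). Plasma cell and survival genes gave 0.98 (IRF4), 0.43 (PRDM1), 0.64 (SDC1), 0.63 (TNFRSF17), 0.62 (PIM2), 0.73 (MCL1) and 0.44 (BCL2). The cell cycle genes gave 2.27 (CDKN1A), -1.50 (CCNB1) and -0.69 (PLK1). The largest positive differences were 4.01 (HMOX1), 3.24 (IFIT2) and 2.60 (IFIT1). The largest negative ones were -14.3 (ENSG00000269339), -4.86 (ARHGEF33) and -3.84 (ITPRIPL2). ENSG00000269339 was at 0 in all 3 DMSO libraries of 6 h and at 1391, 11 and 457 CPM in the NCP26 libraries of 6 h, so its fitted difference rests on zeros and is no bound.

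Between the lines, a positive value means a more positive effect in AMO1, and the value without L363-CFZr DMSO replicate 2, which stood apart, follows in each case. Stress genes gave -1.41 and -1.23 (ATF4), -2.42 and -2.52 (CHAC1), -1.06 and -0.99 (TRIB3), -1.39 and -1.32 (ASNS), -1.34 and -1.43 (SESN2) and -3.47 and -3.17 (GDF15). MYC gave -0.69 and -0.68, POU2AF1 -0.94 and -1.06, PIM2 -0.64 and -0.66, CDKN1A -1.48 and -1.30 and KLF2 -2.71 and -2.87. The largest positive differences were 3.56 and 3.77 (HMOX1), 3.18 and 2.96 (ARVCF) and 2.86 and 2.82 (CD82). IRAG2 gave -4.82 and -4.85 with all 3 L363-CFZr DMSO libraries at 0, and GDF15 stood at 0, 0 and 0.252 CPM in them, so these values are no bounds.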

How the results depend on the processing

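Against DMSO, 6547 genes were called. Other settings gave 5305 (DESeq2), 6410 (GC content offset), 5665 (all 36 AMO1 libraries in the fit), 6372 (NCP22 and halofuginol as control, same set of sample numbers), 6761 (no filter), 6559 (DESeq2 size factors) and 2324 (set term, 1038 higher and 1286 lower). Leaving out 1 library gave 6072 to 6326. Leave-one-out ranges were 4814 to 5917 against NCP22, 5378 to 5709 against halofuginol, 4166 to 4742 against HFG, 1444 to 2334 between times and 282 to 2407 between lines, the last without L363-CFZr DMSO replicate 2. Of the 35 lists with at least 5 tested members, 19 had more genes lower than higher, and leaving out any 1 library also gave 19. Other settings gave 16 (set term), 18 (GC content offset) and 20 (no filter, and replicate block). For 5 lists the median changed sign in at least 1 alternative. With a replicate block, which rests on a shared number only, the counts were 6581 (DMSO), 5398 (NCP22), 5815 (halofuginol), 4778 (HFG), 1719 (times) and 414 (lines). DESeq2 gave 1362 between times and 778 between lines. Some named genes changed sign: IRF4 to 0.0025 (same-set control), TNFRSF17 to -0.068 (GC offset) and -0.011 (same-set control), CCND2 to -0.11 (set term), NARS2 to -0.30 (same-set control) and -2.0 (set term), BHLHE40 to -0.17, TXN to 0.048 and KMT2D to -0.56 (all set term), and KCNK2 to -0.68 (same-set control) and -2.24 (set term). The cause was not tested. Of 261 named genes, 164 kept direction and call in every alternative run and 237 in every one but the set term. Depth of 2712083 to 5005629 counts limits genes of a few CPM.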

Other observations

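Genes that differed most between NCP26 and HFG at 24 h, and that belong to none of the lists above, included STEAP1 (11.5, 11.6 and 7.78 CPM with NCP26 and 2.28, 0.418 and 1.66 CPM with HFG, log2 difference 2.85 ± 0.41), PHKA1 (14.9, 13.6 and 15.3 CPM and 1.14, 1.67 and 2.99 CPM, 2.79 ± 0.31) and L1CAM (15.5, 15.9 and 15.6 CPM and 1.14, 3.35 and 2.33 CPM, 2.71 ± 0.30) among those higher with NCP26. EGR1, an immediate early gene, was higher with HFG (1.24, 0.97 and 0.599 CPM with NCP26 and 10.3, 8.79 and 13.6 CPM with HFG, -3.50 ± 0.39, adjusted p = 8.0e-07). SERF1A was lower with NCP26 than with HFG (log2 difference -2.76 ± 0.48), but 98.0% of its 31-base words occur in other genes.

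Some genes named by the rule had replicates that disagreed. KCNK2 stood at 22.7, 21.1 and 23.7 CPM with DMSO, 33.2, 32.7 and 45.2 CPM with NCP26 and 809, 69 and 63.8 CPM with HFG. NARS2, the mitochondrial asparaginyl-tRNA synthetase, stood at 76.8, 86.9 and 85 CPM with DMSO, 129.9, 105 and 179.9 CPM with NCP26 and 692, 87.8 and 85.4 CPM with NCP22. ARHGEF33 stood at 0, 0.35 and 0.714 CPM with DMSO and 9.0, 2.51 and 5.9 CPM with NCP26 at 6 h, and ITPRIPL2 at 30.8, 7.71 and 50.7 CPM and 703, 64.1 and 302 CPM.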
